A study of Homo sapiens with 8 samples.

Results

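The 9 genes described here, *CDK9*, *CCNT1*, *CCNT2*, *HEXIM1*, *LARP7*, *NELFA*, *NELFB*, *SUPT5H* and *ELL2*, encode parts of the machinery that holds RNA polymerase II (RNAPII) near promoters or releases it into genes. They were selected by symbol from the 23193 genes in the count tables, and each had 1 TSS region and 1 gene body region. Their own transcription was measured by PRO-seq, which sequences the RNA that engaged polymerases extend in isolated nuclei and therefore counts active polymerases rather than stored RNA. The cells were HCT116, an established human colorectal carcinoma line, either wild-type (WT) or HIF1A-/-, a derivative in which the gene of the oxygen-regulated transcription factor HIF1A was disrupted by homologous recombination. Both genotypes were kept in normoxia or exposed to 1% O2 for 90 min, all with DMSO as vehicle, with 2 independent libraries in each of the 4 groups and 8 in all. Whether the HIF1A-/- line came from 1 clone or several is not given in the sources used here.

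Soon after initiation, RNAPII stops within the first stretch of many human genes, where DSIF (SUPT4H1 with SUPT5H) and NELF (NELFA, NELFB, NELFCD and NELFE) hold it. P-TEFb, the kinase CDK9 with cyclin T1 or T2, phosphorylates these factors and RNAPII and thereby starts productive elongation, often as part of super elongation complexes that contain ELL or ELL2. Most P-TEFb in a cell is kept inactive by the 7SK ribonucleoprotein, in which HEXIM1 or HEXIM2 blocks the kinase and LARP7 and MEPCE protect the RNA. HEXIM1 transcription is known to respond to P-TEFb activity, so that the inhibitor is part of a feedback loop.

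Gene body totals were 18125234 to 23622392 reads per library and TSS totals 2783581 to 5966348. The libraries of HIF1A-/- replicate 1 stood apart, with 11.2% of counted reads in TSS regions in normoxia and 12.9% in hypoxia, against 16.9% to 20.2% in the other 6 libraries. For comparisons that use HIF1A-/- cells, values without both of these libraries are also given, as ranges over the 9 genes or for single genes. The gene body of *HIF1A* itself, which spans more than the disrupted exons and so does not test the disruption, had 137.7 and 150.1 CPM (counts scaled to library size) in normoxic WT cells and 129.5 and 161.0 after hypoxia. The HIF1A-/- libraries had 165.2 and 137.0 CPM without and 175.2 and 157.9 with hypoxia. All 6 epithelial markers had at least 274 gene body reads in every library and summed to 855 to 1223 CPM. The 10 markers of fibroblasts, leukocytes and endothelium summed to 21.4 to 59.1 CPM, of which *COL1A1* made up 19.0 to 50.3, *PDGFRB* had at most 6.18 and each other at most 1.65.

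Sequences are shown for *CDK9* and *HEXIM1*, because the start sites of these genes decide what their counts hold. The 100 bases upstream of the counted start of *CDK9* (chr9:130548204-130548303, plus strand, GRCh37) overlap same-strand exons of 1 gene in GENCODE. Of the 2 coding transcripts of *CDK9*, 1 starts in its counted TSS region and 0 in its gene body. The 100 bases upstream of the counted start of *HEXIM1* (chr17:43224583-43224682, plus strand) lie in no same-strand exon. A further 30 bases, from 40 to 11 bases upstream of the GENCODE start of *HEXIM1* (chr17:43225802-43225831), are shown for comparison. GC boxes (GGGCGG) and the TATA motif (TATAAA) are in capitals.
CDK9, counted start: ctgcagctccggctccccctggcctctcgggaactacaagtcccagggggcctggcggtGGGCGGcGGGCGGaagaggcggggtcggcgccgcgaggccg
HEXIM1, counted start: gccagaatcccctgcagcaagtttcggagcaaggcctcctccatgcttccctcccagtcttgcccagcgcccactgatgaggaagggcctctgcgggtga
HEXIM1, GENCODE start: aaaagcttctaTATAAAaggggcgcagagg

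*HEXIM1* has a single exon, and its only coding start in GENCODE (position 43225842) lies 1159 bp downstream of the start used for counting. That start falls inside the counted gene body (chr17:43225684-43229468), whose bases are 95.8% exonic, and not in the counted TSS region (chr17:43224633-43225183). For *HEXIM1*, the gene body reads therefore include any polymerase held near the GENCODE start, and the TSS reads lie upstream of it. No other gene of the 9 lacked a coding start in its TSS region, against 7.88% of the 17394 genes that matched the annotation. The other counted starts were at most 28 bp from a coding start, except that of *ELL2*, 220 bp away. Coding starts also lay inside the counted gene bodies of *CCNT2* (2 of 5 coding transcripts), *NELFA* (2 of 7), *SUPT5H* (1 of 9) and *ELL2* (1 of 3). Of the matched genes, 39.9% had such a start. Gene body levels and pausing indices of these genes therefore include any polymerase that started there.

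Both strands of the 300 bases around each counted start (250 before and 50 after) were searched for 4 short motifs. GGGCGG, the GC box bound by SP1 and related factors, was present for 8 of the 9 genes, and 51.7% of all 23193 windows held it. The window at the counted start of *HEXIM1* had none, and the window of the same length at its GENCODE start had 2. *NELFB* had the most copies with 8, and *CDK9* had 2. TATAAA was in none of the 9 windows and in 10.2% of all, although it was present 29 bp upstream of the GENCODE start of *HEXIM1*. The hypoxia response element core was searched in both its forms. ACGTG was present for *ELL2* alone and GCGTG for 5 genes, *CCNT1*, *CCNT2*, *LARP7*, *NELFB* and *SUPT5H*, against 22.5% and 41.1% of all windows. Together 6 of the 9 windows held one form or the other, against 53% of all, and *CDK9*, *HEXIM1* and *NELFA* held neither. GC content of the TSS regions ran from 46.3% for *LARP7* to 76.4% for *NELFB*, with a median of 61.7% over all TSS regions.

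All 9 genes were transcribed in every library. To compare genes, gene body reads were expressed as CPM per kb (RPKM), and medians are over the 8 libraries. *HEXIM1* had by far the highest level, 26.8 to 35.7 RPKM with a median of 32.9, at the 99.4th percentile of the 16686 gene bodies tested. Its counted gene body holds its only GENCODE coding start, so this level includes any polymerase held near that start. *CDK9*, the P-TEFb kinase (gene body chr9:130549305-130553052), followed with 6.95 to 9.40 RPKM at the 94.2th percentile. *NELFB* had a median of 4.45 RPKM, and *CCNT1*, which encodes cyclin T1, had 3.94.

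*NELFA* had a median of 3.11 RPKM, and *CCNT2*, which encodes cyclin T2, had 2.83. *SUPT5H*, the large DSIF subunit, had 2.01 RPKM and *LARP7*, which stabilizes 7SK RNA, had 1.45. *ELL2*, the elongation factor with the longest gene body of the 9 (75974 bp), was lowest with 0.712 to 1.14 RPKM and a median of 0.818, at the 39.3th percentile. In this order the library ranges of *HEXIM1* and *CDK9*, *CDK9* and *NELFB*, *CCNT1* and *NELFA*, and *LARP7* and *ELL2* did not overlap. The ranges of the other 4 neighbouring pairs overlapped, so their order is not separated beyond the spread between libraries.

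**Figure D1:**
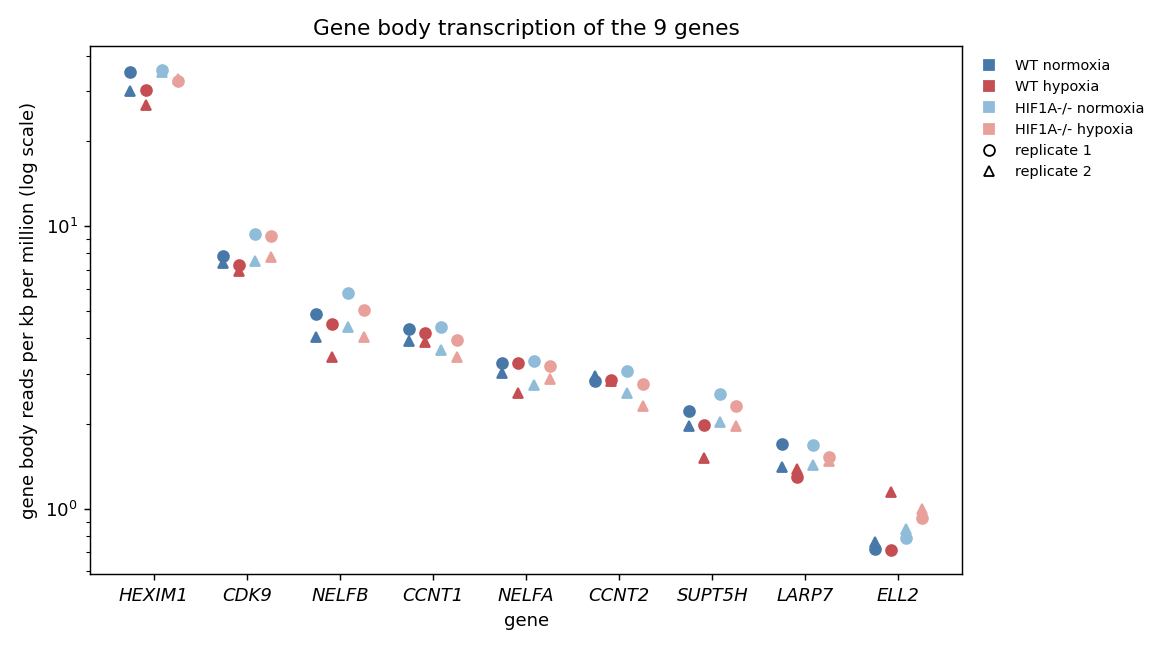
Gene body RPKM (vertical axis, log scale) of the 9 genes in each of the 8 libraries. Colours mark the 4 groups, circles replicate 1 and triangles replicate 2. *HEXIM1*, at 26.8 to 35.7, lies above all others, and *ELL2*, at 0.712 to 1.14, below them.

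Partner genes of the same complexes had levels within this range. *HEXIM2*, the paralog of *HEXIM1*, had a median of 2.62 RPKM. This was far below *HEXIM1*, whose counted gene body includes its GENCODE start. *MEPCE*, the enzyme that caps 7SK RNA, had 16.5 RPKM. The remaining NELF genes *NELFCD* and *NELFE* had 2.92 and 2.80 RPKM, close to *NELFA*. *SUPT4H1*, the small DSIF subunit, had 4.94 RPKM against 2.01 for *SUPT5H*, and *ELL* had 1.80 against 0.818 for *ELL2*.

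The pausing index, the read density in the TSS region (−50 to +500) divided by that in the gene body, differed widely among the 9 genes. *CCNT2* had the highest median over the 8 libraries, 19.7, followed by *LARP7* with 13.8, *SUPT5H* with 12.8, *ELL2* with 11.5 and *NELFA* with 10.9. These 5 genes were at the 54.2th to 72.6th percentile of the 14494 genes tested in both regions. *CCNT1* had a median of 4.78 and *CDK9* one of 3.16. *NELFB* (1.25) and *HEXIM1* (0.226) were the lowest, at the 10.5th and 1.57th percentile, and only their ranges were separate from those of the next gene above. The *HEXIM1* value has to be read with its counted start, since the ratio sets reads upstream of the GENCODE start against reads downstream and across it.

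Between libraries the pausing index moved with the library. Its median over all genes was 5.83 and 6.66 in the libraries of HIF1A-/- replicate 1 and 9.29 to 11.5 in the other 6. The lowest value of each of the 9 genes was in one of these libraries of HIF1A-/- replicate 1. *CDK9* had 2.04 and 2.19 there and 2.78 to 4.35 elsewhere.

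**Figure D2:**
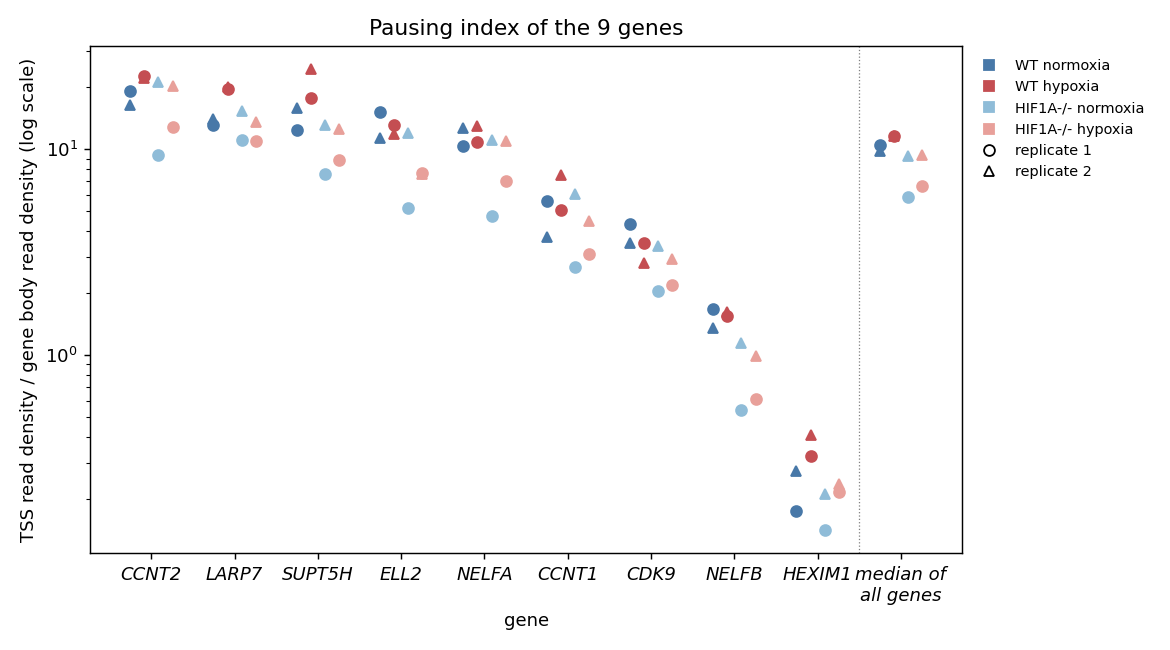
Pausing index (TSS read density over gene body read density, log scale) of the 9 genes in each library, ordered by median, with the median of all genes at the right. Colours mark groups, circles replicate 1 and triangles replicate 2. *HEXIM1* spans 0.141 to 0.410 and *CCNT2* 9.40 to 22.6, and the circles of both HIF1A-/- groups lie low.

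Hypoxia in WT cells gave no call among the 9 gene bodies, with or without the replicate number as a block. At an FDR of 10% (edgeR's quasi-likelihood test, p-values adjusted by Benjamini-Hochberg), 0 of 9 were called, where 0.431% of all gene bodies were, and 0 of 9 had an unadjusted p under 0.05, where 4.61% of all did. DESeq2 also called 0. The log2 fold change was below 0 for 8 genes, of which *CCNT1*, *CCNT2*, *NELFA* and *NELFB* rose above 0 under some alternative. Its median was −0.11 over the 9 against −0.02 over all gene bodies, and 95% intervals reached from −0.70 to 0.82. These values are without the block. With it edgeR called 0 of 9, where 5.51% of all were, and the SE of each of the 9 was smaller. *SUPT5H* then had an unadjusted p of 0.0215, and the SE of *NELFB* was 0.09 against 0.21 without the block.

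*CDK9* had 29.4 and 27.8 CPM in WT normoxia and 27.2 and 26.05 in hypoxia, a log2 fold change of −0.10 ± 0.17 (SE). For the cyclins the values were closer still. *CCNT1* (chr12:49082240-49109780, minus strand) had 118.6 and 108.3 CPM in normoxia and 114.8 and 107.1 in hypoxia, and *CCNT2* (chr2:135677392-135716915) had 112.1 and 116.4 against 113.0 and 111.7. Their log2 fold changes were −0.03 ± 0.14 and −0.02 ± 0.14.

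The inhibitor *HEXIM1* had 132.7 and 114.1 CPM in normoxia and 114.5 and 101.5 in hypoxia, with a log2 fold change of −0.19 ± 0.13. The replicate pairs gave like differences of −0.21 and −0.17, although the libraries of the groups overlapped. *LARP7* (chr4:113559612-113578748) had 32.3 and 26.8 CPM in normoxia and 24.8 and 26.5 in hypoxia (log2 fold change −0.20 ± 0.16), and its pairs gave −0.38 and −0.02. With *CDK9*, it was 1 of the 2 genes whose hypoxic libraries both lay below both normoxic ones, where 19.4% of all gene bodies did so. For 0 of the 9 both lay above, where 18.3% of all did.

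Among the negative elongation factors, *NELFA* (chr4:1984440-2009961, minus strand) had 83.6 and 77.1 CPM in normoxia and 83.5 and 65.6 in hypoxia, and *NELFB* (chr9:140150752-140168000) had 84.3 and 69.9 against 77.8 and 59.5. *SUPT5H* (chr19:39937288-39967310) had 66.4 and 59.0 CPM in normoxia and 59.5 and 45.3 in hypoxia, the lowest log2 fold change of the 9 at −0.26 ± 0.19 (adjusted p = 0.897). In all 3 genes, replicate 2 of WT hypoxia was the lowest of the 4 libraries, and replicate 2 was also the lower library in normoxia. Within replicate numbers, hypoxia lay below normoxia in both pairs of *SUPT5H* (−0.16 and −0.38 on the log2 scale) and of *NELFB* (−0.12 and −0.23). With the block, *SUPT5H* was at −0.27 ± 0.10 and not called (adjusted p = 0.168). Leaving out replicate 2 of WT hypoxia, without the block, gave 0.06 for *NELFA*, 0.02 for *NELFB* and −0.07 for *SUPT5H*, values that also hold the shift between replicate numbers.

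*ELL2* (chr5:95220801-95296774, minus strand) was the only one of the 9 with a log2 fold change above 0, 0.33 ± 0.21 (adjusted p = 0.897). Its counts were 54.5 and 57.9 CPM in WT normoxia and 54.1 and 86.8 in hypoxia, so that 1 library carried the difference. Without replicate 2 of WT hypoxia the log2 fold change was −0.05. In HIF1A-/- cells the gene had 59.8 and 64.5 CPM in normoxia and 70.3 and 75.4 in hypoxia, and the log2 fold change was 0.23 ± 0.21. Both hypoxic libraries lay above both normoxic ones there, where 12.1% of all gene bodies did so.

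**Figure D3:**
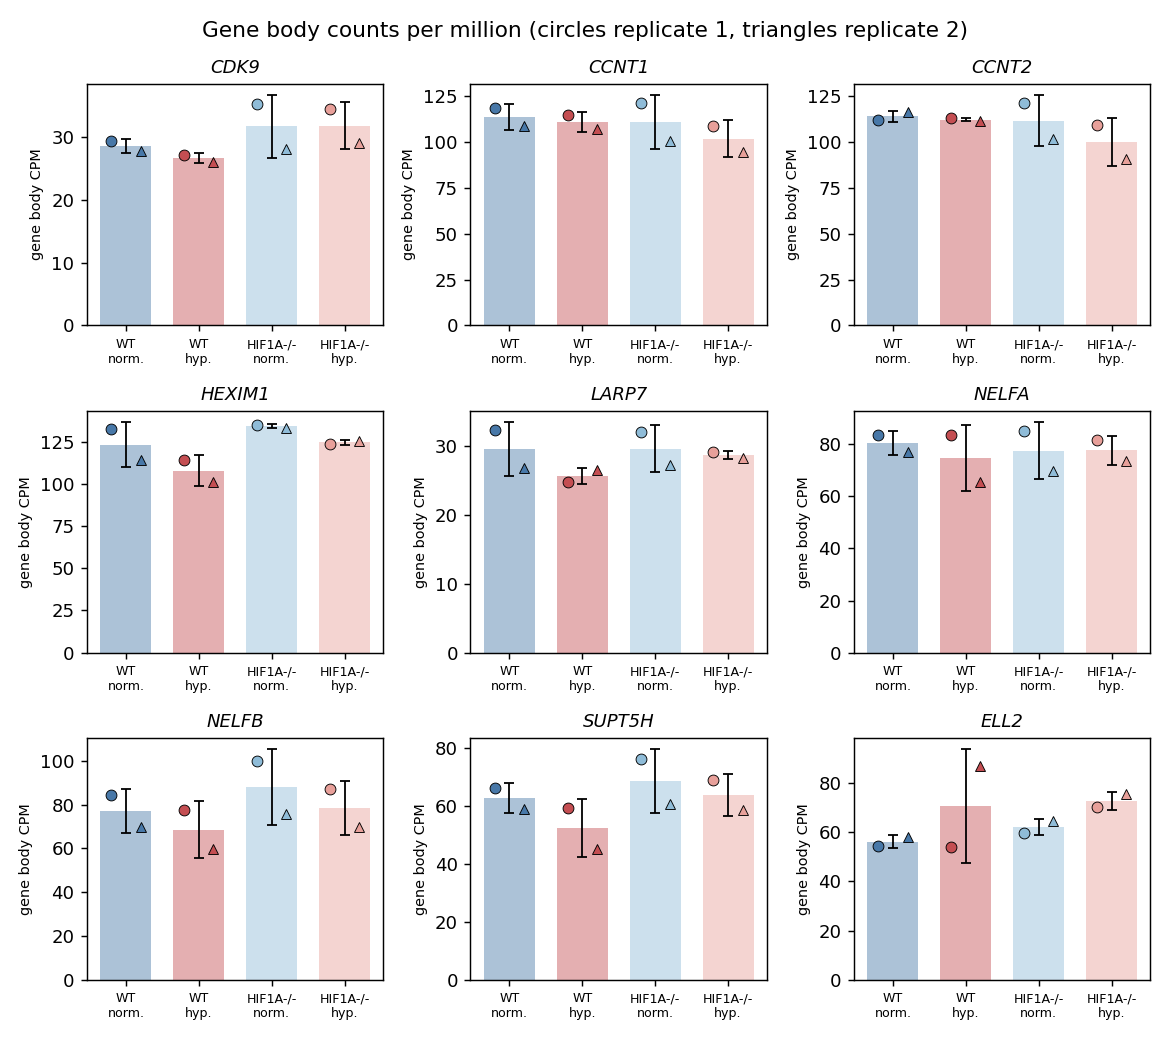
Gene body CPM of the 9 genes by group. Bars are means of the 2 libraries, error bars are the SD, circles are replicate 1 and triangles replicate 2, and each vertical axis starts at 0. The single high library of *ELL2* in WT hypoxia (86.8 CPM) stands above the other 3 WT libraries of that gene.

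In TSS regions, *CDK9* showed the largest difference of the 9 genes between hypoxia and normoxia in WT cells. Its TSS region (chr9:130548254-130548804) had 84.1 and 67.9 CPM in normoxia and 55.9 and 44.03 in hypoxia, so both hypoxic libraries lay below both normoxic ones. Only 1 of its 2 GENCODE coding transcripts starts in that region, and the counts do not separate polymerases that started elsewhere. The log2 fold change was −0.61 ± 0.20 with an unadjusted p of 0.0112 and an adjusted p of 0.922 (edgeR's quasi-likelihood test), and the replicate pairs gave −0.59 and −0.62. With the replicate number as a block the same difference had an adjusted p of 0.0956 and passed the FDR of 10%, as did 1.01% of all TSS regions. DESeq2 with the block did not call it (adjusted p = 0.182).

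Without the block, 0 of the 9 TSS regions were called in WT hypoxia, where 0.046% of all were, and *CDK9* was the 1 gene with an unadjusted p under 0.05, where 4.02% of all had one. DESeq2 without the block called 0. *NELFA* was the other gene whose hypoxic libraries both lay below the normoxic ones, with 77.7 and 75.5 CPM against 84.1 and 99.7, and 17.5% of all TSS regions did so. *CCNT2*, *HEXIM1* and *LARP7* had both hypoxic libraries above, where 17.2% of all did. Of these, *HEXIM1* had 15.1 and 21.4 CPM in normoxia and 21.43 and 25.01 in hypoxia (log2 fold change 0.35 ± 0.29), from 68 to 146 reads in the 4 WT libraries.

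*CCNT1* showed how far single libraries could differ, since its TSS region had 59.3 and 38.4 CPM in normoxia and 46.4 and 66.3 in hypoxia, and the replicate pairs gave −0.35 and 0.79. *SUPT5H* had 67.9 and 81.2 CPM against 76.9 and 84.1, *NELFB* 20.2 and 14.4 against 15.3 and 12.7, and *ELL2* 26.9 and 22.4 against 20.4 and 30.7. For all 4 of these genes the groups overlapped. The *ELL2* TSS region is overlapped on the opposite strand by a region counted for *LOC101929710*. The libraries were strand-specific, but the strand setting of the counting is not given in the sources used here.

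**Figure D4:**
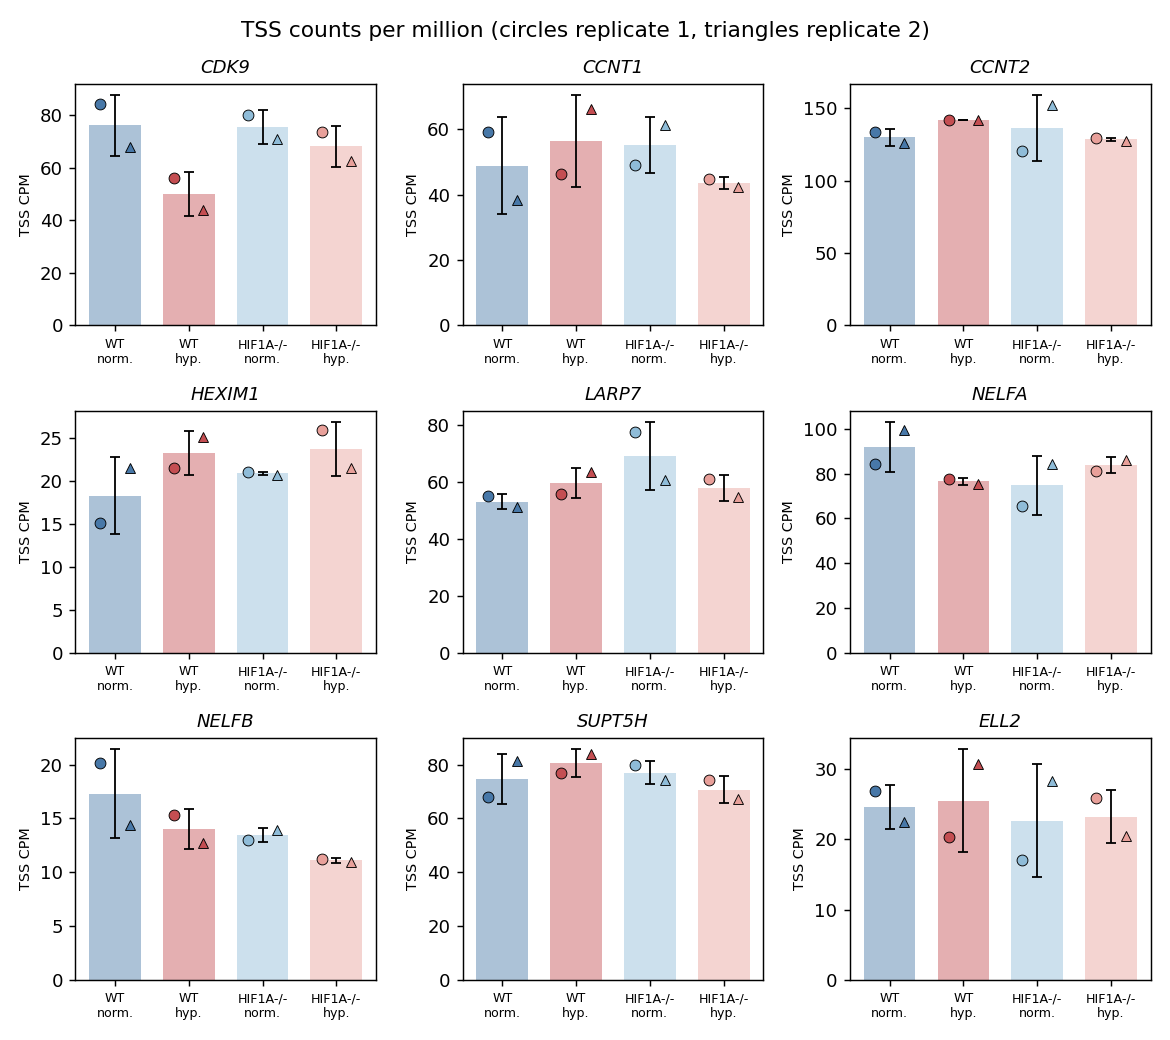
TSS CPM of the 9 genes by group. Bars are means of the 2 libraries, error bars the SD, circles replicate 1 and triangles replicate 2, and each vertical axis starts at 0. In the *CDK9* panel both WT hypoxia libraries (55.9 and 44.03 CPM) lie below the libraries of the other 3 groups (62.5 to 84.1 CPM).

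The change in pausing index was tested in 1 fit of both regions, relative to the shift of all genes. In WT hypoxia, without the block, 0 of 9 genes were called by edgeR, where 0.193% of all were. There 1 had an unadjusted p under 0.05, where 5.35% of all did. That gene was *CDK9*, with pausing index values of 4.35 and 3.51 in normoxia and 3.51 and 2.78 in hypoxia and a log2 change of −0.54 ± 0.22 (adjusted p = 0.857). *HEXIM1* lay on the other side, with 0.174 and 0.272 in normoxia and 0.323 and 0.410 in hypoxia and a log2 change of 0.52 ± 0.27 (adjusted p = 0.857). Its counted TSS region lies upstream of its GENCODE start, so this ratio does not measure pausing at that start. *SUPT5H* had 12.4 and 15.8 in normoxia and 17.7 and 24.5 in hypoxia (log2 change 0.36 ± 0.23), and *LARP7* 13.2 and 14.0 against 19.7 and 20.1 (0.34 ± 0.22). In 4 of the 9 genes, *HEXIM1*, *SUPT5H*, *LARP7* and *CCNT2* (19.1 and 16.4 against 22.6 and 22.1), both hypoxic libraries lay above both normoxic ones, where 39.6% of all genes did so. For 0 of the 9 both lay below, where 7.78% of all did. The median pausing index of all genes was also higher in the hypoxic WT libraries (11.5 in both) than in the normoxic ones (10.5 and 9.76).

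In HIF1A-/- cells, hypoxia gave no call among the 9 genes in any region. By edgeR 0 of 9 were called in gene bodies, TSS regions and pausing index, where 0% of all features were, and 0 of 9 had an unadjusted p under 0.05, where 2.08%, 0.887% and 1.66% of all did. DESeq2 called 0 in gene bodies and TSS regions. Log2 fold changes of gene bodies ran from −0.16 for *NELFB* to 0.23 for *ELL2*, with a median of −0.10 against 0.00 for all. The TSS region of *CDK9* had 80.0 and 70.9 CPM in HIF1A-/- normoxia and 73.6 and 62.5 in hypoxia, a log2 fold change of −0.15 ± 0.21. *HEXIM1* had 135.1 and 133.3 gene body CPM in normoxia and 123.6 and 125.7 in hypoxia, a log2 fold change of −0.11 ± 0.13. It was the 1 gene body of the 9 with both hypoxic libraries below both normoxic ones, where 11.3% of all were. In TSS regions this held for *CCNT1* and *NELFB*, where 11.5% of all did so, and *HEXIM1* had both above, where 12.2% of all did. The pausing index of *HEXIM1* was also higher in both hypoxic libraries (0.217 and 0.236 against 0.141 and 0.211), as for 7.78% of all genes, and for 0 of the 9 it was lower in both, where 6.41% of all were. For *HEXIM1* this ratio again does not measure pausing at its GENCODE start. Without both HIF1A-/- replicate 1 libraries 0 of the 9 were called, and log2 changes ran from −0.16 to 0.23 in gene bodies, −0.54 to 0.05 in TSS regions and −0.70 to 0.13 in the pausing index.

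The difference between the genotypes in the hypoxia response, tested as an interaction, was not called for any of the 9 genes. edgeR called 0.0539% of all gene bodies, 0.00657% of TSS regions and 0.0207% of pausing indices, and unadjusted p values under 0.05 were found for 0 of the 9 genes in each, against 1.36%, 1.18% and 1.9% of all. DESeq2, run for gene bodies and TSS regions only, called 0 of the 9. For the TSS region of *CDK9* the WT response was lower than the HIF1A-/- response by a log2 difference of −0.46 ± 0.29 (95% interval −1.09 to 0.17, adjusted p = 1.00), so its difference between hypoxia and normoxia in WT cells was not shown to depend on genotype. The largest interaction in TSS regions was that of *CCNT1*, 0.56 ± 0.37, and in the pausing index that of *LARP7*, 0.56 ± 0.31. In gene bodies all 9 interactions lay between −0.16 (*SUPT5H*) and 0.13 (*CCNT2*). Without both HIF1A-/- replicate 1 libraries, which leaves 1 library in each HIF1A-/- group, the TSS interaction of *CDK9* was −0.43 and that of *CCNT1* 0.74. The TSS interaction of *ELL2* moved most, from 0.04 to 0.52.

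Between genotypes in normoxia, 0 of the 9 genes were called in any region. The shares called among all features were 1.78% of gene bodies, 0.657% of TSS regions and 0.0966% of pausing indices, and an unadjusted p under 0.05 was found for 0 of the 9 in each, against 9%, 7.99% and 6.36% of all. DESeq2 called 0 of the 9 in gene bodies and TSS regions. Gene body log2 fold changes of HIF1A-/- against WT ran from −0.05 (*NELFA*) to 0.19 (*NELFB*). Without both HIF1A-/- replicate 1 libraries they ran from −0.18 (*NELFA*) to 0.22 (*ELL2*), that of *NELFB* was −0.0046 ± 0.22, and the sign of 3 genes (*LARP7*, *NELFB* and *SUPT5H*) changed. *HEXIM1* and *ELL2* had both HIF1A-/- libraries above both WT ones, where 14.9% of all gene bodies did, and 0 of the 9 had both below, where 17.4% did. In TSS regions *LARP7* had both above (17.4% of all) and *NELFA* and *NELFB* both below (17.3% of all). *NELFB* had pausing index values of 1.67 and 1.36 in WT normoxia and 0.538 and 1.14 in HIF1A-/- normoxia, with a log2 change of −0.52 ± 0.26 (adjusted p = 0.783). It was −0.32 ± 0.31 without both HIF1A-/- replicate 1 libraries. The pausing index of *NELFB* and *CDK9* was lower in both HIF1A-/- libraries than in both WT ones, as for 36.2% of all genes, and for 0 of the 9 it was higher in both, where 4.22% of all were.

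Between genotypes in hypoxia, 0 of the 9 gene bodies were called without the block, where 4.26% of all were, and 0 had an unadjusted p under 0.05, where 15.7% of all did. DESeq2 called 0. *SUPT5H* had 59.5 and 45.3 CPM in WT hypoxia and 69.1 and 58.8 in HIF1A-/- hypoxia, a log2 fold change of 0.29 ± 0.19 (adjusted p = 0.512). The groups overlapped, but within each replicate number the HIF1A-/- library was higher, by 0.22 and 0.38 on the log2 scale. With the replicate block *SUPT5H* was called at 0.30 ± 0.10 (adjusted p = 0.0639), as were 28.2% of all gene bodies, and DESeq2 with the block called it too (adjusted p = 0.0974), as 23.2% of all. A count of 1 in 9 genes is below both shares. Without both HIF1A-/- replicate 1 libraries the log2 fold change was 0.18 ± 0.21 (adjusted p = 0.817).

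*CDK9* had the second highest gene body difference between genotypes in hypoxia, 0.26 ± 0.17, with 27.2 and 26.05 CPM in WT and 34.5 and 29.1 in HIF1A-/- cells. *HEXIM1* followed with 0.21 ± 0.13 (114.5 and 101.5 CPM against 123.6 and 125.7). *CDK9*, *HEXIM1* and *LARP7* had both HIF1A-/- libraries above both WT ones, where 20.9% of all gene bodies did, and *CCNT2* had both below, where 24.6% did. The cyclin genes lay below 0, at −0.13 ± 0.14 for *CCNT1* and −0.17 ± 0.14 for *CCNT2*. The signs of the kinase gene and of its cyclin genes differed, and none of the 3 was called. The log2 fold changes without both HIF1A-/- replicate 1 libraries were 0.14 for *CDK9*, 0.23 for *HEXIM1*, −0.22 for *CCNT1* and −0.30 for *CCNT2*.

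In TSS regions 0 of 9 genes were called between genotypes in hypoxia without the block, where 1.1% of all were, and 0 had an unadjusted p under 0.05, where 13.7% of all did. DESeq2 called 0. *CDK9* was nearest, with 55.9 and 44.03 CPM in WT and 73.6 and 62.5 in HIF1A-/- cells, a log2 fold change of 0.44 ± 0.21 (adjusted p = 0.368). With the replicate block it was called at 0.45 ± 0.17 (adjusted p = 0.0853), as were 14.4% of all TSS regions, and DESeq2 with the block did not call it (adjusted p = 0.191). *CDK9* and *NELFA* had both HIF1A-/- libraries above both WT ones, where 24.2% of all TSS regions did, and *CCNT1*, *CCNT2*, *NELFB* and *SUPT5H* had both below, also 24.2% of all. This comparison shares the WT hypoxia libraries with that between oxygen levels in WT cells. Without both HIF1A-/- replicate 1 libraries the log2 fold change was 0.32 ± 0.26 (adjusted p = 0.881).

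For the pausing index 0 of 9 genes were called between genotypes in hypoxia, where 0.669% of all were, and 0 had an unadjusted p under 0.05, where 12.2% of all did. *NELFB* (1.55 and 1.61 in WT, 0.612 and 0.989 in HIF1A-/- cells) and *SUPT5H* (17.7 and 24.5 against 8.84 and 12.5) had the largest sizes, with log2 changes of −0.51 ± 0.26 and −0.48 ± 0.23 and adjusted p of 0.454 and 0.420. In 7 of the 9 genes, all but *CDK9* and *NELFA*, both HIF1A-/- libraries lay below both WT ones, where 57.5% of all genes did so, and for 0 of the 9 both lay above, where 6.07% of all did. *HEXIM1* is among the 7, and its counted TSS region lies upstream of its GENCODE start. The median of all genes was also lower in HIF1A-/- hypoxia (6.66 and 9.36) than in WT hypoxia (11.5 in both). The change of *SUPT5H* without both HIF1A-/- replicate 1 libraries was −0.45 ± 0.30 and that of *NELFB* −0.39 ± 0.32.

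**Figure D5:**
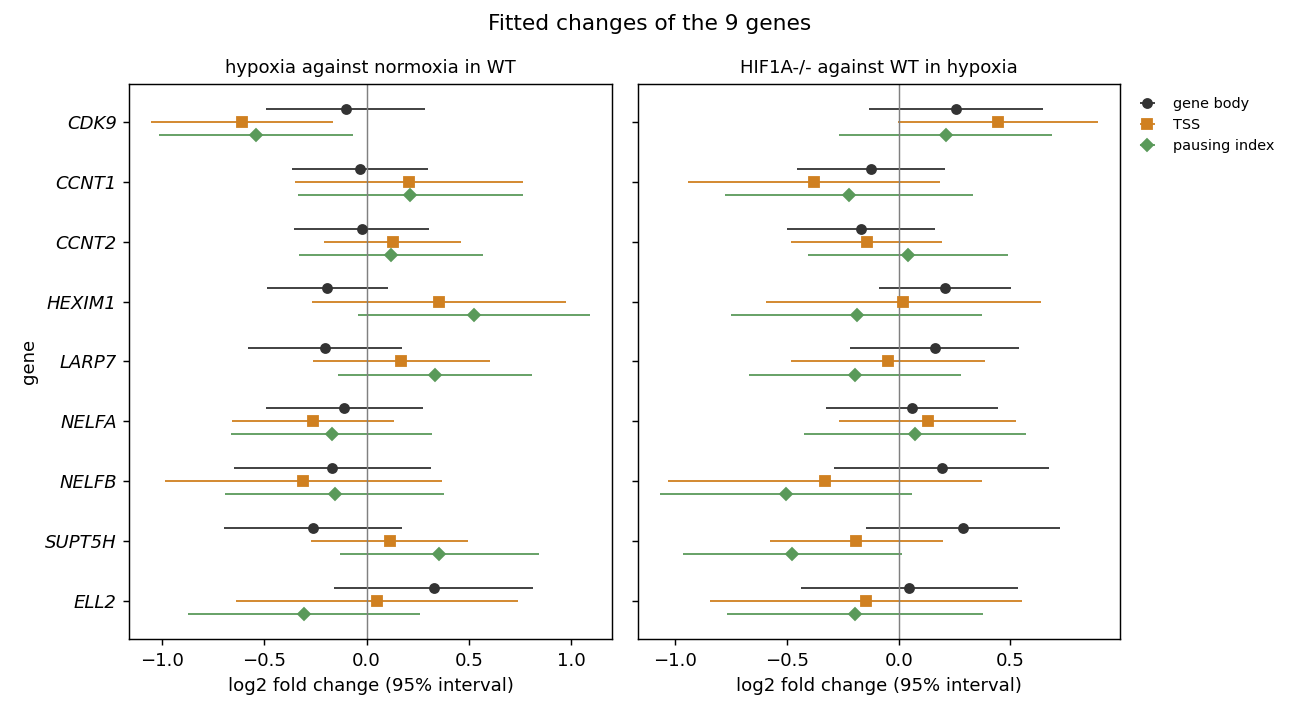
Log2 fold changes (horizontal axis) of the 9 genes with 95% intervals from the edgeR fit without a block, for gene bodies (circles), TSS regions (squares) and pausing index (diamonds). The left panel compares hypoxia with normoxia in WT cells and the right panel HIF1A-/- with WT cells in hypoxia. In the left panel the intervals of *CDK9* for the TSS region and the pausing index do not reach 0.

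The other elongation genes were taken from a list of P-TEFb and 7SK partners, NELF, DSIF, super elongation complex, PAF complex, further kinases of the RNAPII tail and factors of early elongation and termination, 42 genes besides the 9. Of these, 41 were tested in gene bodies, 42 in TSS regions and 41 for the pausing index. Without the block 0 were called in any comparison by edgeR, and at an unadjusted p under 0.05 the count was 0 to 3 in each. In WT hypoxia their median log2 fold change in gene bodies was −0.09, close to the −0.11 of the 9 genes. With the block, 1 of 41 gene bodies was called in WT hypoxia, where 5.51% of all were, and that was *CDK19*, a Mediator kinase gene (0.46 ± 0.09, adjusted p = 0.0435). *INTS6*, a subunit of the Integrator complex, was the 1 of 42 TSS regions called (−0.64 ± 0.15, adjusted p = 0.0455), where 1.01% of all were.

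Between genotypes in hypoxia, the block called 9 of 41 gene bodies of this list, 7 higher and 2 lower in HIF1A-/- cells, against 28.2% of all gene bodies. *INTS11*, the Integrator endonuclease (0.51 ± 0.12), and *PAF1* (0.44 ± 0.14) had the smallest p among the higher ones. *CDK19* (−0.51 ± 0.09) and *MLLT3*, a super elongation complex subunit (−1.33 ± 0.31), were lower. In TSS regions, *SUPT4H1*, the partner of *SUPT5H*, had 226.1 and 228.2 CPM in WT hypoxia and 313.9 and 331.1 in HIF1A-/- hypoxia. Its log2 fold change was 0.51 ± 0.13 without the block (adjusted p = 0.136), and with the block it was called (adjusted p = 0.00964), with *POLR2M* called lower (−0.41 ± 0.14), 2 of 42 where 14.4% of all TSS regions were called. The TSS region of *SUPT5H* was at −0.19 ± 0.18. For the pausing index 1 of 41 was called with the block, *INTS11* (−0.53 ± 0.17), where 6.62% of all were.

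For 3 of the genes similar patterns over the 8 libraries were sought among 13009 other genes, by Pearson's r of log2 gene body CPM. Among the 3 most similar to *HEXIM1* was *RBBP5* (r = 0.979), and the 3 most similar to *CDK9* were *TROAP* (0.992), *ADHFE1* (0.992) and *ZNF83* (0.986). Such values were common, since 274 genes for *HEXIM1* and 543 for *CDK9* exceeded 0.9, and the 8 points share genotypes and replicate numbers. Among the 3 most similar to *ELL2* were *ZFP36* (0.948) and *C2orf61* (0.948), and 22 genes exceeded 0.9.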

How the data were processed

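Both deposited tables hold unnormalized read counts, 1 for TSS regions and 1 for gene bodies. Per the paper's methods and the submitters' processing notes, the authors aligned reads to GRCh37/hg19 with HISAT2 2.1.0 without spliced alignment and counted them with featureCounts (Subread 1.6.2) over TSS regions, each 551 bp long, and gene bodies starting at +1001. Each gene kept the TSS with most reads and its shortest gene body, so other start sites have no TSS region of their own. Polymerases from starts inside a gene body are counted in that gene body.

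From these counts, regions above 0.5 CPM in at least 2 libraries were scaled with TMM factors, and edgeR 4.0.16 (quasi-likelihood, R 4.3.3) was fitted as 4 group means over 8 libraries, with Benjamini-Hochberg adjustment over all regions and an FDR of 10%. The pausing index was tested in 1 fit of both tables with a term for each library. Displayed CPM and RPKM use TMM, and displayed pausing indices use raw densities. The 9 genes passed in both tables. P-values rest on a spread estimated jointly from the 2 cultures in each of the 4 groups and moderated across genes. Without the block this spread also holds the shift between replicate numbers.

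Same-numbered libraries deviated together from their group means in all pairs of groups (r of 0.501 to 0.848 across gene bodies and 0.218 to 0.522 across TSS regions), so the numbers in the labels were taken to pair the libraries. The main fits are without the block and leave this pairing out. The block is given where it changed a call, for gene bodies in WT hypoxia, and where it brought an unadjusted p of the 9 under 0.05. The alternatives were DESeq2 1.42.0, other size factors, library totals, other filters, the block, only the groups compared, 1 library total for both tables, and each library left out. Non-overlap of pausing indices was counted over the 14456 genes with a value in every library. The fits were tested on simulated data for hypoxia against normoxia in WT cells. The simulation gave all genes the same spread, set by hand for the pausing index, and no shift between replicate numbers. Changed genes were drawn at random from all genes tested, so the recovered shares are not specific to the 9. Of simulated 2-fold changes, 52% were recovered in gene bodies, 52% in TSS regions and 23% in the pausing index. Of 4-fold changes, 100%, 94% and 91% were recovered. The absence of a call alone therefore does not exclude a 2-fold change. The genes and lists were chosen with earlier results of these data known. Named besides the 9 are partner genes of their complexes, list genes called (up to 3 per direction by p) and the 3 most similar genes, of which some are not reported here.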

Additional observations from a re-analysis of the deposited data

How the results depend on the processing

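There were 15 results (3 regions by 5 comparisons), and DESeq2 was run for gene bodies and TSS regions only. Without a block, the number of the 9 genes called was 0 under every alternative with 2 libraries per group. With the replicate block it became 1 for gene bodies between genotypes in hypoxia (*SUPT5H*), 1 for TSS regions in WT hypoxia (*CDK9*) and 1 for TSS regions between genotypes in hypoxia (*CDK9*), and with DESeq2 and the block it was 1 for the first of these alone. The block changed no other call of the 9. Over all genes the block raised the calls for gene bodies in WT hypoxia from 72 to 919 and between genotypes in hypoxia from 711 to 4706, and for TSS regions in WT hypoxia from 7 to 153. DESeq2 called 175 gene bodies in WT hypoxia. Without either normoxic WT library edgeR called 0 gene bodies in WT hypoxia, and without WT hypoxia replicate 2 it called 14.

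In WT hypoxia the gene body log2 fold changes of 5 genes changed sign under some alternative, the largest being that of *ELL2* (0.33). That of *CCNT2* became 0.0058 with library totals only and 0.0062 with a stricter filter, and ran from −0.051 to 0.0027 when single libraries were left out. That range was −0.10 to 0.034 for *CCNT1*, −0.29 to 0.063 for *NELFA*, −0.37 to 0.020 for *NELFB* and −0.046 to 0.63 for *ELL2*. The *CDK9* TSS value in WT hypoxia kept its sign, from −0.80 to −0.44 over all alternatives, with adjusted p of 0.0956 to 1.00. With 1 library total for both tables, the median pausing index change of all genes moved to 0.19 in WT hypoxia, −0.42 between genotypes in normoxia and −0.51 in hypoxia, so pausing changes here are relative to all genes. *CDK9* in WT hypoxia was then −0.32 and *HEXIM1* 0.74. The alternative without both HIF1A-/- replicate 1 libraries was chosen after seeing the data and called 0 of the 9. The cause of these changes was not tested. Depth was lowest for the TSS region of *NELFB*, with 34 to 91 reads per library, where the log2 fold change in WT hypoxia had an SE of 0.31.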
